A study of Homo sapiens with 6 samples.

Results

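The genes described here are the 7 insulin-like growth factor (IGF) binding proteins, IGFBP1 to IGFBP7, and the 2 IGF receptors, IGF1R and IGF2R. They were taken by symbol from a table of 59008 gene symbols, and all 9 were found. RNA sequencing was available for 6 libraries, with 1 library per condition, from Hey and SKOV3, 2 established lines of human ovarian cancer. Parental cells were untreated. Polyploid giant cancer cells (PGCCs) had been exposed to 500 nM paclitaxel, which stabilizes microtubules and blocks mitosis, for 16 h and had recovered for 3 days by the treatment label, although the title of the SKOV3 PGCC library gives day 7. Daughter cells, which bud from PGCCs, had the same exposure and 30 days of recovery, and each daughter library is labelled as clone 1. Hey was grown in MEM Eagle and SKOV3 in RPMI medium, both with serum, so line and medium cannot be told apart in any comparison between the lines. For PGCCs the recovery day may differ between the lines as well, since the title of the Hey PGCC library gives day 3.

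IGF1 and IGF2 are secreted growth factors that signal through IGF1R, a receptor tyrosine kinase that activates the PI3K and AKT pathway and supports survival and growth of many tumor cells. IGF2R, also known as the cation-independent mannose 6-phosphate receptor, does not signal in this way: it takes up IGF2 for degradation and carries newly made enzymes to the lysosome. IGFBP1 to IGFBP6 hold IGFs with high affinity outside the cell, and some of them are cut by proteases such as PAPPA and PAPPA2. IGFBP7 binds IGFs weakly and is known as a secreted product of senescent cells.

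The sequences upstream of IGFBP3 and IGFBP4 are shown because these genes gave the most IGFBP transcripts in SKOV3 and in Hey. Each run is the 250 bases before the RefSeq start (GRCh38.p14), 5′ to 3′ on the strand of the gene. Capitals mark TATANA, a form of the TATA box, and GGGCGG, the GC box, searched on both strands and overlapping where they do. The IGFBP3 window lies on the minus strand at chr7:45921273-45921522 and that of IGFBP4 on the plus strand at chr17:40443200-40443449. GENCODE places the start of IGFBP3 further upstream, at 45921874, so the IGFBP3 window is inside the gene as GENCODE annotates it.
IGFBP3: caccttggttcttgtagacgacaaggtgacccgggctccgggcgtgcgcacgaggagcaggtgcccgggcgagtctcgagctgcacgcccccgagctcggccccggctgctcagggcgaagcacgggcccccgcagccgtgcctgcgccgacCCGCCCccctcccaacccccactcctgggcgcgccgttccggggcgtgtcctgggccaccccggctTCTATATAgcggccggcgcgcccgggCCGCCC
IGFBP4: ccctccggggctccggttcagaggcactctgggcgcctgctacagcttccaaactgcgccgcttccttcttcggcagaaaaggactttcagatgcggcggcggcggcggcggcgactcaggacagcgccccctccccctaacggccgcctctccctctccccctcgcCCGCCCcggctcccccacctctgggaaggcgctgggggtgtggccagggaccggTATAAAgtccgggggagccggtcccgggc
TATANA was found in both windows and in 17.7% of 35114 RefSeq windows of this length, and GGGCGG in both and in 42.6%. TGANTCA, an AP-1 motif, was in neither window and in 6.57% of all. The IGFBP3 window was 76.0% G and C with 32 CpG pairs and the IGFBP4 window 71.6% with 24, where the medians over all windows were 58.0% and 11.

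Levels are in TPM, a unit scaled for transcript length and for the library total, so that genes can be compared with each other, and they are given in the order parental cells, PGCCs, daughter cells. TPM measures a share of the RNA, and in bulk RNA fewer cells with a transcript and less of it per cell cannot be told apart. They carry no read counts, so depth per gene and counting error are unknown, and without replicates no value has an SD. Columns summed to between 911825 and 920497 TPM. Mitochondrial genes took from 2.64% (Hey parental cells) to 14.8% (SKOV3 daughter cells) of the TPM. Epithelial markers summed to between 1036 and 3161 TPM over the libraries, mostly KRT7, KRT8 and KRT18, while EPCAM, CDH1 and KRT19 were at most 1.43, 0.0283 and 3.60 TPM in Hey and reached 68.8, 8.35 and 711 TPM in SKOV3. The ovarian carcinoma markers summed to between 59.2 and 185 TPM, mostly PAX8 at 54.7 to 136 TPM. WT1 was at most 4.10 TPM and MUC16 at most 1.59 TPM. MSLN was at 21.5, 23.3 and 0.386 TPM in Hey and at 33.1, 46.1 and 1.85 TPM in SKOV3. ERBB2, which is amplified in SKOV3, was at 1127 to 1778 TPM in the SKOV3 libraries and 8.20 to 14.1 in the Hey libraries. Fibroblast markers summed to 0.133 to 3.20 TPM in Hey and 12.6 to 27.3 in SKOV3, and leukocyte PTPRC was at 0 in Hey and at most 0.425 in SKOV3. Of the 3 endothelial markers, CDH5 was at 33.2 to 48.5 TPM in Hey, while PECAM1 and VWF were under 1 TPM throughout.

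Within a line, a difference of log2(TPM + 1) of at least 1, a 2-fold change, is called here, among the 14988 genes whose TPM averaged at least 1 over the 6 libraries. This scale understates changes of low genes. Of the 9 members 8 passed this minimum. IGFBP5, with a mean of 0.656 TPM, did not, and IGFBP4 passed through its Hey values alone.

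The binding proteins differed from each other in level by orders of magnitude, and the leading member was a different gene in each line. In the Hey libraries IGFBP4 was first in order, followed by IGFBP6 and IGFBP3 in parental cells, PGCCs and daughter cells alike. In the SKOV3 libraries IGFBP3 was first and IGFBP4 was last or next to last. Summed over the 7 genes, IGFBP transcripts amounted to 467, 560 and 387 TPM in Hey. The SKOV3 sums were 689, 845 and 650 TPM. In each line PGCCs had the largest sum and daughter cells the smallest, with no replicate to judge these steps by. Between SKOV3 parental cells and PGCCs IGFBP6 went from 102 to 330 TPM, while IGFBP3 was at 404 and 403 and IGFBP7 at 172 and 102. Of the IGFBP6 difference of 1.68 in log2(TPM + 1), a trend across genes with transcript GC content and length fitted 0.97. The sums were not recomputed without that trend.

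**Figure D1:**
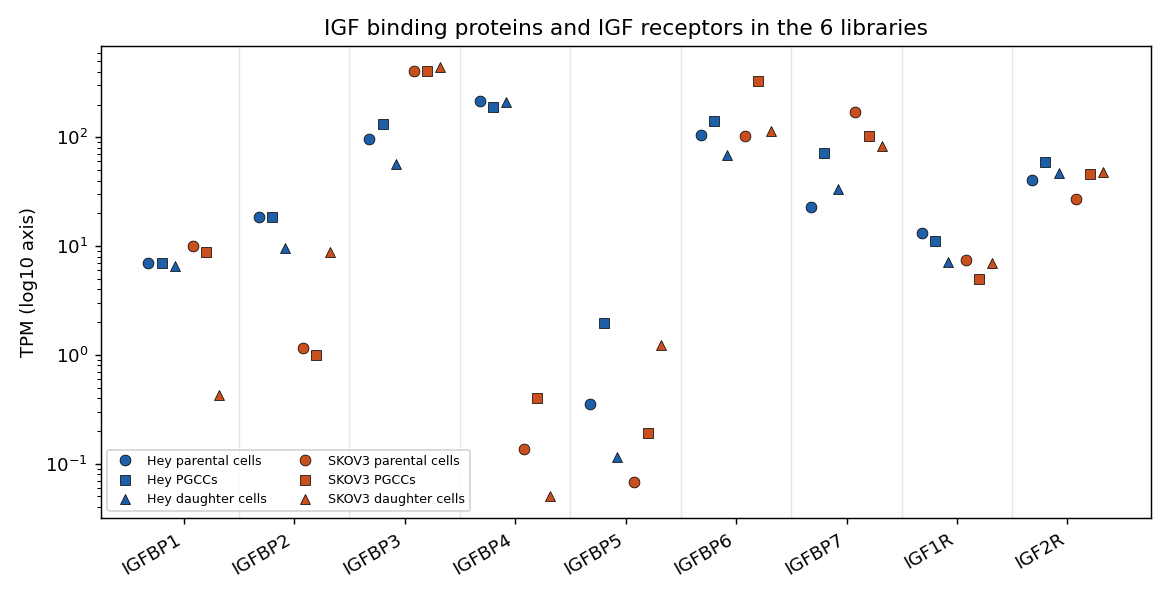
TPM of the 9 genes on a log10 axis, 1 point per library, with Hey in blue and SKOV3 in orange, parental cells as circles, PGCCs as squares and daughter cells as triangles. IGFBP4 lies at 188 to 216 TPM in Hey and under 1 TPM in SKOV3, while IGFBP3 is higher in every SKOV3 library than in any Hey library.

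IGFBP4, a binding protein that mostly restrains IGF action and is cut by PAPPA, was the member with the widest range. Its TPM was 216, 188 and 211 in Hey, against 0.138, 0.403 and 0.0502 in SKOV3. The gene lies on chromosome 17 from 40443450 to 40457725 (GRCh38). It was in the top 5% of the tested genes in each Hey library, at percentiles 96.0 to 96.3, and at percentiles 2.92 to 5.03 in SKOV3. On the log2 scale the differences from Hey parental cells were -0.20 in PGCCs and -0.039 in daughter cells, small beside the gap between the lines.

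IGFBP3, the main carrier of IGFs in serum and a target of p53, had the opposite order between the lines. Its TPM was 96.4, 131 and 57.3 in Hey, and 404, 403 and 440 in SKOV3. The SKOV3 values lay close together, with differences of -0.0022 for PGCCs and 0.12 for daughter cells compared with parental cells. It made up 58.6%, 47.7% and 67.7% of all IGFBP transcripts in the SKOV3 libraries, and 20.7%, 23.5% and 14.8% in those of Hey. The gene lies on chromosome 7 from 45912245 to 45921874.

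Between the lines, limma was fitted on log2(TPM + 1) of all 14988 genes with line and state as terms, which leaves 2 residual degrees of freedom and treats the states of a line as its repeats. Since IGFBP4 met the minimum through Hey alone, its difference of 7.44 (standard error 0.324) in that fit is a description. In a fit of all genes with a TPM above 0, where IGFBP4 was kept by the libraries of either line, its adjusted p was 0.0175 by limma. Of the 7 other members 1 reached an adjusted p under 0.05, where 20.6% of all tested genes did (6.27% higher in Hey and 14.4% lower). This was IGFBP3, lower in Hey in 3 of 3 states, with a difference of -2.19 (standard error 0.343, adjusted p = 0.00595 by limma). Over 11 other settings its adjusted p by limma lay between 0.00204 and 0.0815. It was 0.0738 with all genes above 0, 0.0814 without the Hey PGCC library and 0.0815 without the SKOV3 PGCC library. The latter fits had 1 residual degree of freedom, and 0 genes of the table passed in them, IGFBP4 included. IGFBP4 was again kept there through Hey alone, and its difference of 7.62 in each is a description.

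IGFBP2 and IGFBP7 came close to the threshold in the same fit. IGFBP2, which has a preference for IGF2, stood at 18.6, 18.4 and 9.56 TPM in Hey, and at 1.17, 1.00 and 8.88 in SKOV3. Its difference between the lines was 2.18 (standard error 0.640, adjusted p = 0.0507 by limma). The per-state values show that it was 3.18 in parental cells and 3.27 in PGCCs but 0.10 in daughter cells. IGFBP7 stood at 22.8, 72.5 and 33.5 TPM in Hey and at 172, 102 and 83.8 in SKOV3, a difference of -1.55 (standard error 0.463, adjusted p = 0.0535 by limma). Over the 11 other settings the adjusted p by limma was between 0.0165 and 0.317 for IGFBP2 and between 0.0353 and 0.297 for IGFBP7. The other 4 members had adjusted p-values by limma between 0.214 (IGFBP6) and 0.538 (IGFBP1).

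The 3 values of one line did not overlap those of the other for IGFBP4 and for 3 of the 7 other members (IGFBP2, IGFBP3 and IGFBP7), where this was so for 44.6% of all tested genes (12.8% higher in Hey and 31.8% lower). At the 2-fold call, with IGFBP4 counted, 2 members were higher in Hey (IGFBP2 and IGFBP4) and 2 lower (IGFBP3 and IGFBP7) among parental cells, where 11.5% and 24.2% of the tested genes were, 35.7% in all. Among PGCCs 3 were higher (IGFBP2, IGFBP4 and IGF1R) and 2 lower (IGFBP3 and IGFBP6), beside 13.4% and 29.6%, 43.0% in all. Among daughter cells 2 were higher (IGFBP1 and IGFBP4) and 2 lower (IGFBP3 and IGFBP7), beside 12.3% and 29.5%, 41.8% in all. IGFBP6 in PGCCs differed by -1.23, by -0.93 with median-ratio scaling and by -0.29 once the trend of the differences across genes with transcript GC content and length was subtracted. With median-ratio scaling IGFBP7 in daughter cells (-0.90) was also under the call, and IGF1R in parental cells went from 0.72 to 1.02, past it. The median difference over all tested genes was itself -0.29 for parental cells, -0.35 for PGCCs and -0.38 for daughter cells. With median-ratio scaling, which brought these medians to -0.014, -0.083 and -0.025, IGFBP4 differed by 7.28 to 7.83 and IGFBP3 by -2.51 to -1.30.

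Comparing PGCCs with parental cells addresses what accompanies giant cell formation after paclitaxel. In each line 1 member was called, a different gene in each, and both were higher. In Hey this was IGFBP7, and 7.67% of the tested genes were called higher there (12.9% in either direction). In SKOV3 it was IGFBP6, with 9.94% of the tested genes called higher (14.9% in either direction). No member was called lower, against 5.22% of the tested genes in Hey and 4.96% in SKOV3. The median difference of the 8 members was 0.21 in Hey and -0.060 in SKOV3, beside 0 and 0.017 over all tested genes.

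IGFBP7 had a difference of 1.63 in Hey PGCCs, from 22.8 to 72.5 TPM, and of -0.75 in SKOV3 PGCCs, from 172 to 102 TPM. The level in Hey PGCCs thus came nearer to those of the SKOV3 libraries, and the difference between the lines was -2.86 in parental cells and -0.48 in PGCCs. By their titles the PGCC libraries differ in recovery day, which cannot be told apart from line here. In Hey daughter cells it was 33.5 TPM, a difference of 0.54 from parental cells. In SKOV3 daughter cells it was 83.8 TPM, a difference of -1.03, which was -0.94 with mitochondrial genes left out. The gene lies on chromosome 4 from 57030773 to 57110385, and its antisense gene IGFBP7-AS1 was at most 0.261 TPM.

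IGFBP6, which binds IGF2 far more tightly than IGF1, went from 102 to 330 TPM between parental cells and PGCCs of SKOV3, a difference of 1.68. The median GC content of its annotated transcripts, 64.1%, was above that of 96.3% of the tested genes. In SKOV3 the PGCC difference over 13468 genes was larger for transcripts of higher GC content, with a Spearman correlation across genes of 0.72 (Hey, -0.047), which describes these libraries. The part of the difference fitted by GC content and length was 0.97 for IGFBP6, and the remainder of 0.71 was under the call. In Hey the values were 105 TPM in parental cells and 140 in PGCCs, a difference of 0.41, or 0.51 with the trend removed. Daughter cells were lower than PGCCs in both lines, at 69.0 TPM in Hey and 115 in SKOV3, with differences of -1.01 and -1.51. Of the 8 members, IGFBP6 alone had the same call in Hey and SKOV3 in any of the 3 comparisons among states. For daughter cells against PGCCs 1.07% of the tested genes were lower in each line and 1.21% higher, and for PGCCs against parental cells 0.834% were higher in each line and 0.834% lower. Once the trend with GC content and length was removed, it was -0.74 in SKOV3, under the call, and -1.09 in Hey.

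**Figure D2:**
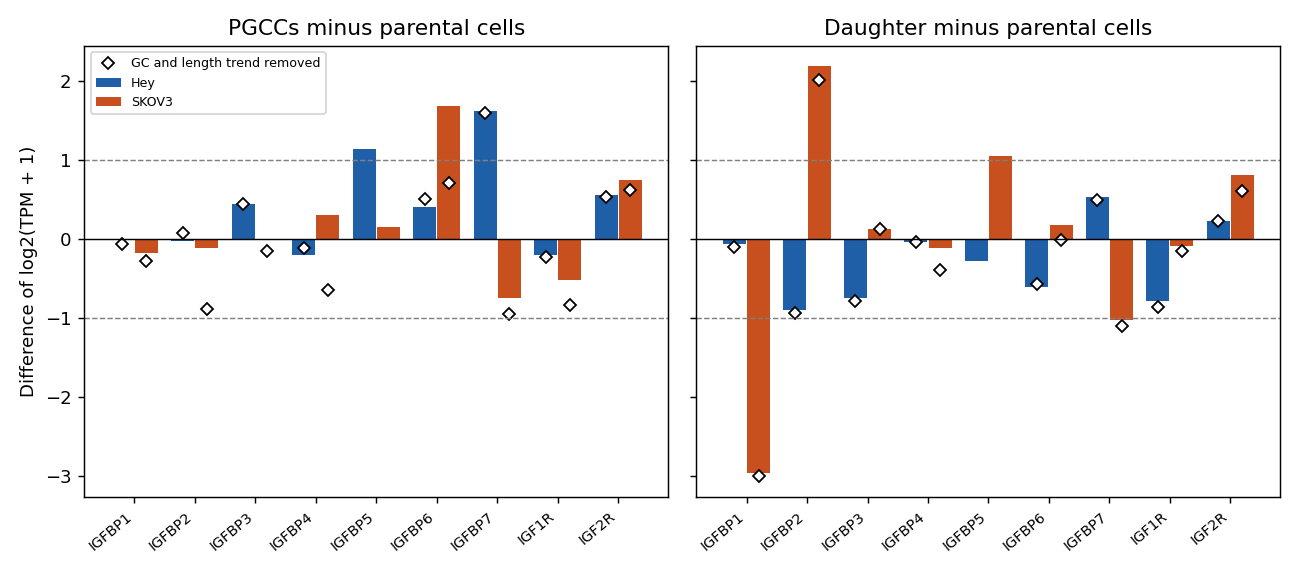
Difference of log2(TPM + 1) from parental cells for the 9 genes in PGCCs (left) and daughter cells (right), as bars for Hey (blue) and SKOV3 (orange), with dashed lines at the 2-fold call. Diamonds give the difference with the GC and length trend removed and are absent for IGFBP5; for IGFBP6 in SKOV3 PGCCs the bar at 1.68 is past the line and the diamond at 0.71 is not.

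The remaining binding proteins that were tested differed by less than the call between parental cells and PGCCs. IGFBP3 in Hey differed by 0.44, and IGFBP4 in SKOV3, from 0.138 to 0.403 TPM, by 0.30. With a pseudocount of 0.1 that IGFBP4 difference was 1.08, and with the trend of GC content and length removed it was -0.64. IGFBP1, which is known for its control by insulin in liver, was at 6.94 and 6.96 TPM in Hey and at 10.1 and 8.81 in SKOV3. IGFBP2 differed by -0.021 in Hey and -0.12 in SKOV3. In SKOV3 the IGFBP2 difference was -0.88 with the GC and length trend removed. IGFBP5, which binds extracellular matrix, was under 2 TPM in every library, at 0.357, 1.99 and 0.116 TPM in Hey and at 0.0681, 0.191 and 1.22 TPM in SKOV3. Its difference of 1.14 in Hey PGCCs was past 2-fold, at a level too low to be counted among the tested genes.

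Among the receptors, IGF2R was higher and IGF1R lower in PGCCs than in parental cells of both lines, by less than 2-fold. IGF2R was at 40.3, 59.7 and 47.5 TPM in Hey and at 27.2, 46.4 and 48.4 TPM in SKOV3. The PGCC differences were 0.55 and 0.75, and over the alternative settings they ran from 0.48 to 0.70 (Hey) and from 0.62 to 0.77 (SKOV3). IGF1R was at 13.1, 11.2 and 7.15 TPM in Hey and at 7.51, 4.96 and 7.04 TPM in SKOV3. Its PGCC differences were -0.20 and -0.51. Over the alternative settings they ran from -0.28 to -0.063 (Hey) and from -0.83 to -0.51 (SKOV3). The Hey value of -0.063 was with mitochondrial genes left out. The ratio of IGF2R to IGF1R within a library does not depend on scaling between libraries. It was 3.09, 5.32 and 6.64 in Hey, and 3.62, 9.34 and 6.87 in SKOV3. In each line both libraries from treated cells had a larger ratio than the parental library.

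Tested across both lines, no member passed the threshold between states. For PGCCs compared with parental cells 0 of the 8 members had an adjusted p under 0.05 by limma, beside 0.02% of all tested genes (0.00667% higher and 0.0133% lower), and 1 member (IGFBP6) had an unadjusted p under 0.05, beside 2.73% of all. Its difference was 1.05 (standard error 0.417, adjusted p = 1 by limma), higher in both lines. For daughter cells compared with parental cells 0 members passed adjusted (0.0133% of all) and 0 unadjusted (3.39% of all). For daughter cells compared with PGCCs 0 members passed, as did 0% of all tested genes, and 1 member (IGFBP6) had an unadjusted p under 0.05, beside 5.06% of all, with a difference of -1.26 (standard error 0.417, adjusted p = 0.908 by limma), lower in both lines. With 2 residual degrees of freedom these fits do not show that the states were alike.

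**Figure D3:**
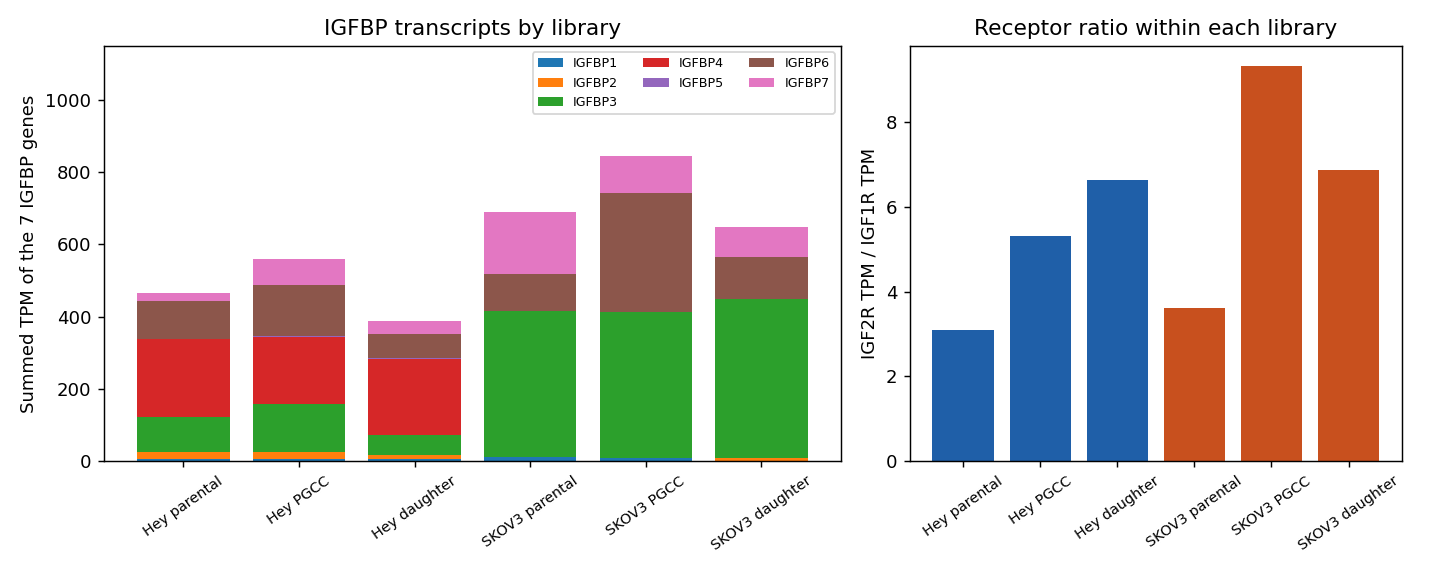
Left, summed TPM of the 7 IGFBP genes in each library, stacked by gene. Right, TPM of IGF2R divided by TPM of IGF1R in each library, Hey in blue and SKOV3 in orange. IGFBP4 fills 33.6% to 54.5% of the Hey bars and almost none of the SKOV3 bars, where IGFBP3 fills 47.7% to 67.7%, and the receptor ratio is smallest in the parental library of each line.

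Daughter cells compared with parental cells show what differed after 30 days of recovery. In Hey 0 of the 8 members were called, where 6.31% of the tested genes were called higher and 3.73% lower, 10.0% in all. In SKOV3 3 were called, IGFBP2 higher (15.1% of the tested genes) and IGFBP1 and IGFBP7 lower (6.34%), where 21.5% of the tested genes were called in all. The median difference of the members was -0.33 in Hey and 0.020 in SKOV3, beside 0.050 and 0.15 over all tested genes.

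IGFBP1 had the largest decrease of any member between states. It was at 10.1 TPM in SKOV3 parental cells, 8.81 in SKOV3 PGCCs and 0.426 in SKOV3 daughter cells, differences of -2.96 from parental cells and -2.78 from PGCCs. The 3 Hey libraries lay between 6.62 and 6.96 TPM. The SKOV3 daughter library alone stood apart, while the 5 other libraries lay between 6.62 and 10.1 TPM. Over the alternative settings the difference from parental cells was between -4.27 and -2.96.

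IGFBP2 went the other way in the same library, from 1.17 TPM in SKOV3 parental cells to 8.88 in daughter cells, a difference of 2.19, and from 1.00 in PGCCs, a difference of 2.30. In Hey daughter cells IGFBP2 was lower than in parental cells, with a difference of -0.90 that was -1.02 with median-ratio scaling. The daughter libraries of the lines had like levels of IGFBP2, 9.56 and 8.88 TPM, where parental cells had 18.6 and 1.17. Marker genes also differed between SKOV3 parental and daughter cells. The fibroblast markers summed to 12.9 and 27.3 TPM, with COL1A1 at 2.35 and 16.3 and PDGFRB at 0.280 and 5.35, but LUM at 8.84 and 5.56 and DCN at 1.33 and 0.0292. Of the epithelial markers, EPCAM was at 68.8 and 8.15 TPM, KRT19 at 292 and 80.2 and KRT8 at 411 and 319. CDH1 was at 1.47 and 8.35 TPM, KRT7 at 417 and 487 and KRT18 at 220 and 414. The epithelial list summed to 1411 and 1317 TPM, and the proliferation markers to 1349 and 714 TPM. The part of these marker genes in the IGFBP1 and IGFBP2 differences was not tested.

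The members include neighboring genes. IGFBP2 and IGFBP5 face each other on chromosome 2 with 7.668 kb between their ends, and IGFBP1 and IGFBP3 face each other on chromosome 7 with 18.584 kb between them (GENCODE release 44). Both genes of the first pair were higher in SKOV3 daughter cells than in parental cells, with differences of 2.19 for IGFBP2 and 1.06 for IGFBP5. That of IGFBP5, which is outside the tested genes, was from 0.0681 to 1.22 TPM. In Hey daughter cells the differences were -0.90 and -0.28. In PGCCs compared with parental cells IGFBP2 and IGFBP5 differed by -0.021 and 1.14 in Hey and by -0.12 and 0.16 in SKOV3. The second pair did not move together in SKOV3 daughter cells, where IGFBP1 differed by -2.96 and IGFBP3 by 0.12.

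Compared with PGCCs, daughter cells of Hey had 3 of the 8 members called lower, IGFBP3, IGFBP6 and IGFBP7, where 8.13% of the tested genes were called lower, and 0 higher, where 9.95% were, 18.1% in all. The differences were -1.18 for IGFBP3, -1.01 for IGFBP6 and -1.09 for IGFBP7, all near the call, and at a 3-fold threshold 0 remained. IGFBP5, outside the tested genes, differed by -1.42. In SKOV3 IGFBP2 was called higher (14.6% of the tested genes) and IGFBP1 and IGFBP6 lower (9.25%), where 23.9% were called in all. Since these comparisons share their PGCC libraries with those to parental cells, the 2 sets are not separate evidence. The median difference of the members was -0.73 in Hey and -0.11 in SKOV3, beside 0.029 and 0.12 over all tested genes. Proliferation markers summed to 525, 103 and 699 TPM in Hey and to 1349, 668 and 714 TPM in SKOV3. Their part in these differences was not tested.

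The ligands of the family were low or listed at 0 in these libraries. INS was listed at 0 in all 6, and IGF1 was at most 0.00698 TPM. IGF2 was at most 0.156 TPM except in SKOV3 daughter cells, at 2.16 TPM. INSR, the insulin receptor, was at 0.242 to 0.451 TPM in Hey and at 1.75, 2.02 and 4.63 TPM in SKOV3. IGFALS, which joins IGFBP3 in a serum complex, was at most 0.0898 TPM.

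Of a list of 39 genes of the pathway 31 were tested. In Hey PGCCs 2 were called higher than in parental cells and 4 lower, beside 7.67% and 5.22% of all tested genes. In SKOV3 PGCCs 1 was higher and 2 lower, beside 9.94% and 4.96%. The median difference of the list was -0.057 in Hey and 0.013 in SKOV3, beside 0 and 0.017 over all tested genes. No gene of the list had the same call in the PGCCs of both lines. In daughter cells compared with parental cells 1 was higher and 3 lower in Hey, beside 6.31% and 3.73% of all tested genes, and 6 were higher and 5 lower in SKOV3, beside 15.1% and 6.34%. The list medians were -0.020 and 0.16, beside 0.050 and 0.15 over all. Those shared were ADAM12, higher in both lines (1.19% of the tested genes), and STC1 and SOCS2, lower in both (0.387%).

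STC1, a secreted glycoprotein that inhibits PAPPA, was at 19.1, 174 and 7.90 TPM in Hey. In SKOV3 it was at 6.79, 2.87 and 2.14 TPM, so its PGCC difference was 3.12 in Hey and -1.01 in SKOV3. STC2, a related inhibitor, had values of 43.9, 92.6 and 59.3 TPM in Hey and of 1.44, 2.94 and 4.80 TPM in SKOV3, with PGCC differences of 1.06 and 0.69. ADAM12, a metalloproteinase that cuts IGFBP3 and IGFBP5, was at 6.66, 4.82 and 14.7 TPM in Hey and at 1.47, 1.31 and 16.7 TPM in SKOV3. Its level was highest in the daughter library of each line, with differences from parental cells of 1.03 and 2.84.

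PAPPA2, a protease of IGFBP3 and IGFBP5, was at 32.3, 13.5 and 17.6 TPM in Hey and at 0, 0.00936 and 0.0156 TPM in SKOV3. PAPPA itself averaged under the minimum, and its highest level was 2.12 TPM in Hey PGCCs. HTRA1, a serine protease with an IGFBP-like domain, was at 22.5, 10.8 and 20.6 TPM in Hey and at 61.5, 34.0 and 27.4 TPM in SKOV3. SOCS2, a feedback inhibitor of growth hormone signaling, was at 48.3, 22.5 and 21.3 TPM in Hey and at 8.27, 4.50 and 2.59 TPM in SKOV3. It was lower in PGCCs and in daughter cells than in parental cells of both lines, with differences of -1.07 and -0.75 for PGCCs and -1.14 and -1.37 for daughter cells.

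**Figure D4:**
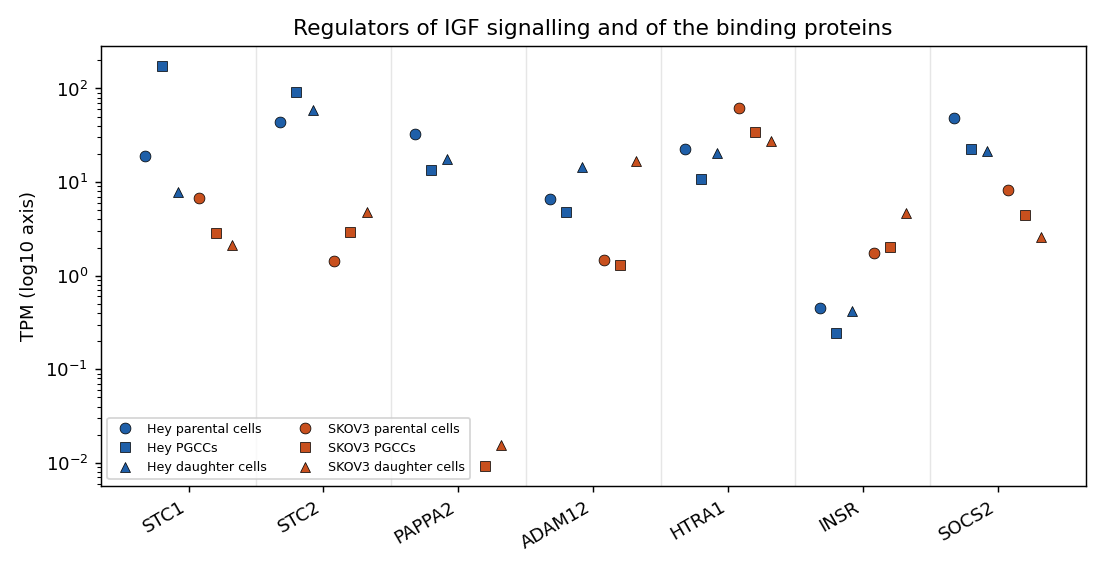
TPM on a log10 axis of 7 genes of the IGF pathway, 1 point per library, with Hey in blue and SKOV3 in orange and the states as circles (parental cells), squares (PGCCs) and triangles (daughter cells). STC1 reaches 174 TPM in Hey PGCCs, ADAM12 is highest in the daughter library of each line, and PAPPA2, at 0 in SKOV3 parental cells, has no point there because a log axis cannot show 0.

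The 11 relatives of the family that carry an IGFBP-like domain, such as CCN1 and CCN2, included 7 tested genes. In Hey PGCCs 0 were called higher than in parental cells and 2 lower, CCN1 and CCN2, while in SKOV3 PGCCs 2 were called higher, CCN1 and CCN5, and 0 lower. The shares over all tested genes were 7.67% higher and 5.22% lower in Hey and 9.94% and 4.96% in SKOV3. CCN1, a matricellular target of YAP, went from 459 to 106 TPM in Hey and from 3.45 to 46.7 TPM in SKOV3. Between PGCCs and daughter cells 1 relative was lower in daughter cells of both lines, ESM1, at 1732 and 824 TPM in Hey and 2.90 and 0.0531 TPM in SKOV3, where 1.07% of all tested genes were lower in both. The relatives named here were chosen after their values were seen.

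The genes with a pattern most like the 3 members of widest range were sought by the root mean square distance between log2(TPM + 1) values over the 6 libraries, each centred on its mean. Nearest to IGFBP4 were PDPN (0.21), MMP14 (0.32) and CR381670.2 (0.36), where the median distance over all tested genes was 3.93. PDPN had 177, 198 and 154 TPM in Hey and at most 0.0884 TPM in SKOV3. Nearest to IGFBP2 were CASP4 (0.22), GSAP (0.24) and NFATC4 (0.27), with a median distance of 1.56. CASP4 had 248, 240 and 202 TPM in Hey and 35.6, 29.9 and 136 TPM in SKOV3. Nearest to IGFBP1 were INPP1 (0.22), EFEMP1 (0.25) and HOXB-AS3 (0.27), with a median distance of 1.23. EFEMP1 had 7.51, 6.30 and 11.3 TPM in Hey and, in SKOV3, 10.9 TPM in PGCCs and 0.631 in daughter cells. These distances describe 6 libraries and have no error.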

How the data were processed

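Total RNA from 6 conditions was sequenced, 1 library each. The authors cleaned reads with fastp, quantified them on the human transcriptome (hg38) with salmon 0.14.1 and deposited TPM per gene symbol. How transcripts were joined into symbols, the annotation release and library strandedness are not given in the sources used here. TPM values were used as deposited, and each library's group was taken from its label. Differences were taken on log2(TPM + 1) and called at 1. No test was made between 2 single libraries. limma 3.58.1 (R 4.3.3, eBayes with trend, two-sided, Benjamini-Hochberg) was fitted to all genes whose TPM averaged at least 1, with state and cell line as terms. The cell line pairs the libraries by design, and the line term is the block. P-values measure the disagreement between lines or states, since nothing gives separate cultures.

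GC content and length are medians over GENCODE release 44 transcripts (GRCh38), joined by symbol, for 89.9% of the tested genes. The trend was fitted by lowess (fraction 0.3, 2 passes, statsmodels 0.14.6) and subtracted. Python 3.11.15 with numpy 2.4.6, pandas 2.3.3 and scipy 1.17.1 was used. Promoter entries were found for 7 of the 9 members. Alternatives were a pseudocount of 0.1, all genes with a TPM above 0, median-ratio scaling, mitochondrial genes left out, 1.5-fold and 3-fold calls, trend removal and, for limma, no block, no trend and each library left out. Genes named are all members, ligands, INSR, tested proteases and their inhibitors, list genes called in both lines, and the 3 genes nearest to each of the 3 members of widest range. PAPPA, IGFALS, CCN1, CCN2, CCN5 and ESM1 fall outside this rule and were named after their values were seen. Members and lists were chosen with earlier results of these data known. The 2-fold calls with trend removal and the limma fit were each tested on simulated data with known changes.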

Additional observations from a re-analysis of the deposited data

Results flagged for a closer look

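Differences of opposite sign in Hey and SKOV3, each of at least 0.5 on the log2(TPM + 1) scale, are listed here for members and for named genes of the pathway. With 1 library per condition none of these differences between the lines was tested. Where PGCCs are compared, the recovery day may also differ between the lines, as the titles give it. Between PGCCs and parental cells, IGFBP7 differed by 1.63 in Hey and -0.75 in SKOV3, and STC1 by 3.12 and -1.01. Between daughter and parental cells, IGFBP2 differed by -0.90 in Hey and 2.19 in SKOV3, and IGFBP7 by 0.54 and -1.03. Between daughter cells and PGCCs, IGFBP2 differed by -0.87 in Hey and 2.30 in SKOV3, and STC2 by -0.63 and 0.56. IGFBP5 differed by -1.42 in Hey and 0.90 in SKOV3, at levels under 2 TPM. PAPPA, whose TPM averaged under the minimum, differed by -1.20 in Hey and 0.73 in SKOV3.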

How the results depend on the processing

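No called difference of a member changed sign under any of the 7 alternatives. The number of members called changed by over 1.5 times in the following cases. For Hey PGCCs against parental cells (1 called), 2 were called without the minimum, IGFBP5 being added. For Hey daughter against parental cells (0), 1 was called with median-ratio scaling and 4 at 1.5-fold. For Hey daughter cells against PGCCs (3), 5 were called at 1.5-fold and 0 at 3-fold. For SKOV3 PGCCs against parental cells (1), 2 were called with a pseudocount of 0.1 (IGFBP4, under 1 TPM, being added), 3 at 1.5-fold and 0 with the GC and length trend removed. For PGCCs of Hey against those of SKOV3 (5), 3 were called at 3-fold. Over all tested genes, SKOV3 PGCCs had 1490 called higher and 744 lower, and 280 and 347 with the trend removed, and higher genes in parental Hey against SKOV3 cells were 32.3% of those called and 46.0% with median-ratio scaling.

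By limma, 3 genes differed between PGCCs and parental cells and 2 between daughter and parental cells; with a pseudocount of 0.1, all genes with a TPM above 0, or no block for the pairing by cell line, 0 did in each. Leaving out 1 library gave 0 to 1 (1 without the SKOV3 parental library, 0 without any other) and 0 to 105. Between daughter cells and PGCCs (0) it gave 0 to 67. The 105 and 67 were both without the Hey daughter library, and every other omission gave 0. Between the lines (3093) it gave 0 to 2120: 0 without either PGCC library, 983 without SKOV3 parental cells, 1011 without Hey parental cells and 1931 without Hey daughter cells, and all genes with a TPM above 0 gave 329. Dropping the block changed no call of a member between states; between the lines it brought IGFBP2 to an adjusted p of 0.0321 and IGFBP7 to 0.0353 by limma. TPM without counts sets no limit of detection, so the values under 1 TPM (IGFBP4 in SKOV3, IGFBP1 in SKOV3 daughter cells and IGFBP5 in 4 libraries) have unknown precision.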
